A study of Rattus norvegicus with 12 samples.

Results

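Sprouty proteins, ERRFI1 and SOCS proteins are feedback inhibitors of signalling from the cell surface. Sprouty proteins (genes Spry1, Spry2 and Spry4) are induced by growth factors and restrain the RAS-ERK cascade downstream of receptor tyrosine kinases. ERRFI1, also called MIG6, binds the kinase domain of the EGF receptor and its relatives and blocks their activity. SOCS2 and SOCS3 are induced by cytokines and hormones through STAT factors and damp signalling from JAK-coupled receptors, SOCS2 mainly at the growth hormone receptor and SOCS3 at receptors that share gp130. Members were all probe sets whose only gene symbol in the array annotation was Spry1, Spry2, Spry4, Errfi1, Socs2 or Socs3. This gave 5 of the 15866 probe sets tested, 1 each for Spry1 (1379380_at), Spry2 (1374864_at), Errfi1 (1373093_at), Socs2 (1369577_at) and Socs3 (1369584_at). No probe set carried the symbol Spry4, so 1 of the 6 genes was not analysed here.

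The cells were ventral midbrain cells of CD1 rat embryos at embryonic day 12, as the labels give the strain, expanded for 6 days with bFGF at 20 ng/ml, a mitogen, plus the patterning factor SHH at 50 ng/ml and then kept for 3 days without either factor. On day 9 the cultures were depolarized with 56 mM KCl for 2 h, which opens voltage-gated calcium channels, or kept in control medium, and were collected 30 min or 2 h after that period. The 4 groups were therefore controls and depolarized cultures at each interval, with 3 arrays in each group and 12 in all. The embryos, from 4 pregnant rats, had been combined in 3 groups, and RNA of duplicate cultures was pooled, so the spread between arrays is that of pooled cultures and not of animals. Every group had been exposed to both factors and withdrawn from them. The labels do not tie the 30 min and the 2 h cultures to 1 preparation, so interval and preparation cannot be told apart in comparisons between intervals.

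Array medians lay between 8.33 and 8.43 log2 units, and arrays of 1 group correlated at 0.996 to 0.998 across probe sets. The table holds no detection calls, so absence of a transcript cannot be called. Levels below are RMA values, a log2 summary of the probes of 1 probe set, and are compared between groups for 1 probe set at a time, never between genes. Dopaminergic markers were measured for 8 of 10 listed genes, with Th, which makes the dopamine precursor, at a mean of 7.53 in the 30 min controls and 7.96 in the 2 h controls. Cell type markers differed with the interval. In the 2 h controls all 9 measured neuronal markers were higher than in the 30 min controls (list mean 11.47 to 11.52 over the arrays against 10.35 to 10.58), 6 of 8 dopaminergic markers were higher (8.41 to 8.59 against 7.60 to 7.72), 6 of 8 oligodendrocyte lineage markers were lower (7.66 to 7.76 against 8.22 to 8.28) and 5 of 10 astrocyte and radial glia markers were lower (10.60 to 10.70 against 10.78 to 10.80). Over all probe sets 18.1% were higher and 17.2% lower in the 2 h controls than in the 30 min controls. More cells of a type and more RNA per cell cannot be told apart in such samples.

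The promoters of Spry2 and Errfi1 are shown because both genes rose at both intervals and their upstream windows lie outside the annotated gene span. Each sequence is the 250 bases before the RefSeq start in build GRCr8, 5′ to 3′ on the strand of the gene. Spry2 lies on the minus strand (chr15:89111927-89112176) and Errfi1 on the plus strand (chr5:166606591-166606840). Capitals mark the CRE half-site TGACG, the ETS core CCGGAA and the TATA box TATAAA, on either strand.
Spry2: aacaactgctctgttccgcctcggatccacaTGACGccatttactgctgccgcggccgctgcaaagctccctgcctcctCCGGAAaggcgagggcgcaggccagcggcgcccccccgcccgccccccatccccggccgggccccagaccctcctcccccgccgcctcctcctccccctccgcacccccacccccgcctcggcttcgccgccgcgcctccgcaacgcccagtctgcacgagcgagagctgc
Errfi1: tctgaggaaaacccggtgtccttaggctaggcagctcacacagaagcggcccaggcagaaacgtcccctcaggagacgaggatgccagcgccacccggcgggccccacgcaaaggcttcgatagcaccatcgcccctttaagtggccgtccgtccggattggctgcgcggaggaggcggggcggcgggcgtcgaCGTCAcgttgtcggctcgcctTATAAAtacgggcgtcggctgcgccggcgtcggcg

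The Spry2 window held TGACG 219 bases and CCGGAA 171 bases before the start. The Errfi1 window held TGACG on the opposite strand 56 bases before the start, printed as its reverse complement, and a TATA box 35 bases before it. Of 33469 windows of that length in the RefSeq table, 18.2% held TGACG, 12.6% held CCGGAA and 12.9% held TATAAA. The full CRE TGACGTCA, which contains the half-site (1.59% of windows), the AP-1 motif TGANTCA (6.34%), the STAT motif TTCNNNGAA (7.67%) and the CArG box (1.5%) were also searched on both strands. None of these 4 was in either printed window. The table holds 6 windows of the genes of the rule, and those of Spry1 and Socs3 and another one of Spry2 lie inside the annotated gene span and were only searched. The Spry1 window held none of the 7 motifs, the Socs3 window held CCGGAA and the other Spry2 window held TTCNNNGAA. The window of Spry4, which has no probe set here and is therefore not printed, held CCGGAA and TTCNNNGAA. GC content was 74.8% in the printed Spry2 window and 67.2% in that of Errfi1, against a median of 51.2% over all windows. These matches describe letters in a window and were not tested for binding.

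Depolarization was followed by higher levels of 4 of the 5 measured genes at both intervals. Spry1, Spry2 and Errfi1 were 1.89-fold to 2.56-fold higher at 30 min and 2.10-fold to 2.48-fold higher at 2 h, and Socs3 was 1.20-fold and 1.27-fold higher. Socs2 went the other way at 30 min, where it was 1.19-fold lower, and did not pass at 2 h. By limma, with p-values adjusted across all probe sets by the Benjamini-Hochberg method (threshold 0.05), 4 of 5 members rose at 30 min, where 10.8% of all probe sets rose, and 1 fell, where 13.1% fell. At 2 h 4 of 5 rose, where 9.51% of all probe sets rose, and 0 fell, where 15.7% fell. In these same 4 genes all 3 depolarized arrays lay above all 3 controls of their interval at both intervals, as in 17.9% of all probe sets at 30 min and 15.4% at 2 h. The median difference over all probe sets was 0.01 at 30 min and -0.00070 at 2 h (log2). Members and the gene lists below were chosen with earlier results of these data known, so their counts are no independent support.

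**Figure D1:**
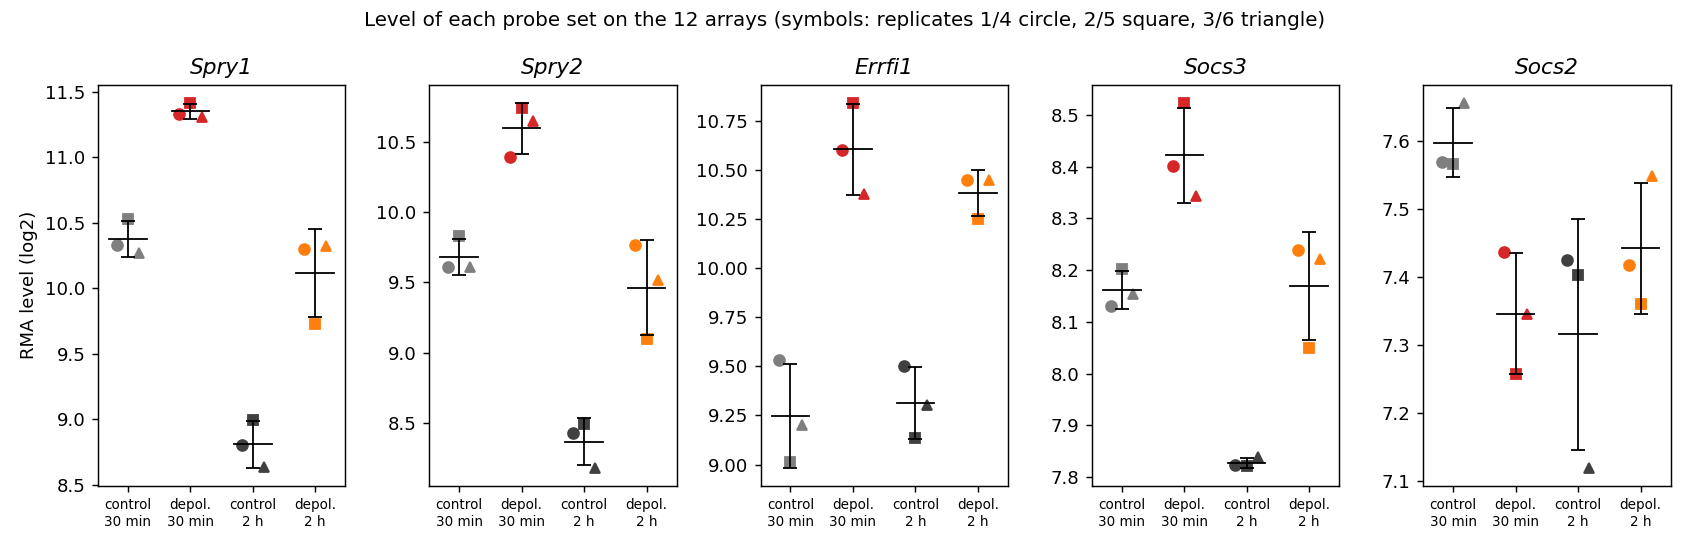
RMA level (log2) of each measured member on each of the 12 arrays, by group, with the group mean (line) and SD (bar, n = 3) and a separate vertical axis for each gene that does not start at 0. In Spry1 and Spry2 the depolarized arrays at 2 h lie above the 2 h controls and overlap the 30 min controls in part. Replicate 5 of Spry1 (9.73) and replicates 5 and 6 of Spry2 (9.10 and 9.52) lie below all 30 min controls. In Errfi1 the depolarized arrays at 2 h lie above both control groups.

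Spry1 encodes a Sprouty protein that restrains FGF and GDNF receptor signalling. At 30 min its probe set read 10.33, 10.53 and 10.27 in the controls (replicates 1 to 3) and 11.33, 11.41 and 11.31 in the depolarized cultures. All depolarized arrays lay above all controls, by 0.97 (SE 0.13, 95% interval 0.70 to 1.25, adjusted p = 3.62e-05 by limma), a difference larger in size than that of 98.8% of all probe sets. At 2 h it read 8.80, 8.99 and 8.63 in the controls (replicates 4 to 6) and 10.30, 9.73 and 10.32 in the depolarized cultures. The groups again did not overlap, and the difference was 1.31 (SE 0.13, 95% interval 1.03 to 1.59, adjusted p = 5.69e-06), larger in size than that of 99.7% of probe sets.

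The level of Spry1 also moved between the intervals without depolarization. The 2 h controls were 2.96-fold below the 30 min controls (log2 difference -1.57, SE 0.13, adjusted p = 1.91e-07 by limma), which ranked 60th by size among 15866 probe sets. Depolarized cultures fell by 1.23 (SE 0.13, adjusted p = 1.97e-06) from 30 min to 2 h. In order of level the groups were depolarized at 30 min, controls at 30 min, depolarized at 2 h and controls at 2 h. The middle neighbours overlapped and did not pass (0.26, SE 0.13, adjusted p = 0.136), so depolarized cultures at 2 h were above their own controls but not above those collected earlier.

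Spry2 encodes the Sprouty protein best known as an inhibitor of ERK activation by FGF and as a modulator of EGF receptor turnover. It read 9.61, 9.83 and 9.61 in the 30 min controls and 10.40, 10.74 and 10.65 in the depolarized arrays. The depolarized arrays were higher by 0.92 (SE 0.14, 95% interval 0.62 to 1.21, adjusted p = 0.000109 by limma), without overlap. At 2 h the controls read 8.43, 8.49 and 8.18 and the depolarized arrays 9.77, 9.10 and 9.52. That difference was 1.09 (SE 0.14, 95% interval 0.80 to 1.39, adjusted p = 3.67e-05), again without overlap.

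Spry2 followed the same order of groups as Spry1. Its 2 h controls were 2.49-fold below the 30 min controls (-1.31, SE 0.14, adjusted p = 2.28e-06 by limma), and depolarized cultures fell by 1.13 (SE 0.14, adjusted p = 8.18e-06) between the intervals. Depolarized arrays of the 2 h group and 30 min controls overlapped (-0.22, SE 0.14, adjusted p = 0.24), a comparison that passed without depolarized replicate 4 (-0.37, adjusted p = 0.0417). Over the 12 arrays the Spry2 probe set was the one most like Spry1 among 15865 others, and Spry1 the one most like Spry2 (Pearson r = 0.993). This r describes arrays that share 4 groups, so it mostly reflects the group levels.

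Errfi1, the EGF receptor inhibitor, differed in level between treatments and showed no passing difference between intervals. The 30 min controls read 9.53, 9.01 and 9.20 and the depolarized arrays 10.60, 10.84 and 10.38, a difference of 1.36 (SE 0.13, 95% interval 1.08 to 1.64, adjusted p = 1.4e-06 by limma). The 2 h controls read 9.50, 9.14 and 9.30 and the depolarized arrays 10.45, 10.25 and 10.45, a difference of 1.07 (SE 0.13, 95% interval 0.79 to 1.35, adjusted p = 3.12e-05). Both depolarized groups lay above both control groups on every array. Across intervals, all depolarized arrays at 2 h lay above all 30 min controls in 21.7% of all probe sets. All depolarized arrays at 30 min lay above all 2 h controls in 31.5%. The controls of both intervals overlapped (0.07, 95% interval -0.21 to 0.35, adjusted p = 0.722), as did both depolarized groups (-0.22, 95% interval -0.50 to 0.06, adjusted p = 0.19). Depolarized cultures at 2 h were also above the 30 min controls (1.13, SE 0.13, adjusted p = 5.85e-06), and Errfi1 was the 1 member of 5 that passed in that comparison, where 36.8% of all probe sets passed in either direction.

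Socs3, the inhibitor of gp130 and JAK signalling, moved in the same directions as the Sprouty genes over a smaller range. It read 8.13, 8.20 and 8.15 in the 30 min controls and 8.40, 8.52 and 8.34 in the depolarized arrays, which were higher by 0.26 (SE 0.07, 95% interval 0.12 to 0.40, adjusted p = 0.00894 by limma). Leaving out depolarized replicate 2 ended that call (0.21, adjusted p = 0.0571). At 2 h the controls read 7.82, 7.82 and 7.84 and the depolarized arrays 8.24, 8.05 and 8.22, higher by 0.34 (SE 0.07, 95% interval 0.20 to 0.49, adjusted p = 0.00147). The groups did not overlap at either interval.

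From 30 min to 2 h Socs3 fell by 0.33 in controls (adjusted p = 0.00109 by limma) and fell by 0.25 in depolarized cultures (adjusted p = 0.00699). In order of level the groups were depolarized at 30 min, depolarized at 2 h, controls at 30 min and controls at 2 h. The middle neighbours overlapped and differed by 0.0077 (95% interval -0.14 to 0.15, adjusted p = 0.946). The first and last neighbours did not overlap. All arrays at 2 h lay below all at 30 min in 28.3% of all probe sets for depolarized cultures and 27.5% for controls.

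Socs2, the inhibitor of growth hormone receptor signalling, had the narrowest range of the 5 probe sets, 0.54 log2 units over the 12 arrays against 0.70 to 2.78 in the others. At 30 min the controls read 7.57, 7.57 and 7.66 and the depolarized arrays 7.44, 7.26 and 7.35. The depolarized arrays lay below all controls, as in 18.9% of all probe sets. The difference was 0.25 (log2 difference -0.25, SE 0.08, 95% interval -0.43 to -0.07, adjusted p = 0.0377 by limma). This call ended when control replicate 1 was left out (adjusted p = 0.0664), 2 (0.067) or 3 (0.132) or depolarized replicate 2 (0.152) or 3 (0.0821) was. It also ended after median centring (0.0674), after a loess correction (0.0566) and with an ordinary equal-variance test (0.094).

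At 2 h Socs2 read 7.42, 7.40 and 7.12 in the controls and 7.42, 7.36 and 7.55 in the depolarized arrays, which overlapped (0.13, 95% interval -0.05 to 0.30, adjusted p = 0.307 by limma). The 2 h controls were 0.28 below the 30 min controls (log2 difference -0.28, SE 0.08, adjusted p = 0.0152), a call lost without control replicate 3 (0.06) or 6 (0.0725), after quantile normalization (0.0636) and after a loess correction (0.139). Depolarized arrays differed by 0.10 between the intervals (adjusted p = 0.376). In order of level the groups were controls at 30 min, depolarized at 2 h, depolarized at 30 min and controls at 2 h. All arrays of the first lay above all of the second, as in 28.1% of all probe sets. No neighbours in that order passed (adjusted p = 0.165, 0.376 and 0.774 by limma). The last of these compares depolarized cultures at 30 min with controls at 2 h, where 52.1% of all probe sets passed.

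**Figure D2:**
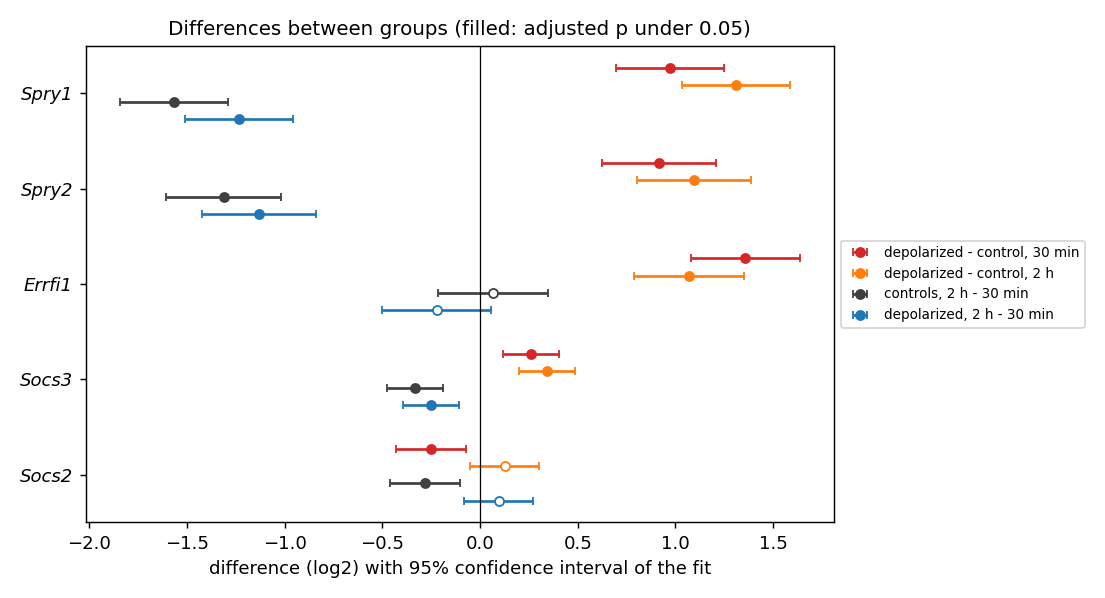
Difference in log2 level for 4 comparisons of the 5 measured members, with the 95% confidence interval of the limma fit (8 residual degrees of freedom before moderation), filled where adjusted p was under 0.05. Spry1, Spry2 and Socs3 lie above 0 for depolarization and below 0 for the later interval, and the intervals of Errfi1 between collection times include 0.

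The size of the response differed between the intervals for 1 of 5 members, where 13% of all probe sets passed in either direction. In Socs2 the response at 2 h was 0.38 above that at 30 min (SE 0.12, adjusted p = 0.0456 by limma), going from lower to not passing. It lost its call without any 1 of 8 of the 12 arrays (control replicates 1, 2, 3 and 6 and depolarized replicates 2, 3, 4 and 6, adjusted p = 0.0641 to 0.107) and after quantile normalization (0.083) or a loess correction (0.0982). The response difference was 0.34 for Spry1 (95% interval -0.06 to 0.73, adjusted p = 0.285), 0.18 for Spry2 (-0.23 to 0.59, adjusted p = 0.656), -0.29 for Errfi1 (-0.68 to 0.11, adjusted p = 0.381) and 0.08 for Socs3 (-0.12 to 0.28, adjusted p = 0.683). The upper bound for Spry1 is 1.66-fold, so a difference of that size cannot be set aside at 3 arrays a group.

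In the depolarized group at 2 h, replicate 5 was the lowest array in 5 of 5 members. How often it was the lowest over all probe sets was not computed, so this count is no result particular to the members. Replicate 5 read 9.73 for Spry1, against 10.30 and 10.32 for the other arrays, and 9.10 for Spry2, against 9.77 and 9.52. Without it the difference at 2 h was 1.50 for Spry1 (adjusted p = 5.58e-08 by limma), 1.28 for Spry2 (2.02e-06), 1.14 for Errfi1 (4.95e-05) and 0.40 for Socs3 (0.000658). Spry1 then passed for the response difference (0.53, adjusted p = 0.0142), which it did not with all arrays. The differences between depolarized cultures at 2 h and 30 min controls moved from -0.26 to -0.065 for Spry1 and from -0.22 to -0.037 for Spry2.

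Between the controls, 4 of 5 members were lower at 2 h than at 30 min, where 17.2% of all probe sets were lower and 18.1% higher, and 0 were higher. Depolarized cultures fell between the intervals in 3 of 5 members (Spry1, Spry2 and Socs3), where 21.8% of all probe sets fell. Neuronal and dopaminergic markers rose and oligodendrocyte lineage markers fell over the same controls, as given above, and their part in these falls was not tested. Fewer marker calls were made between treatments within an interval, where 10.8% of all probe sets rose and 13.1% fell at 30 min. At 2 h these shares were 9.51% and 15.7%. At 30 min 1 of 9 neuronal, 2 of 8 dopaminergic and 1 of 10 microglial markers rose in depolarized cultures, while 1 of 8 oligodendrocyte lineage and 1 of 10 endothelial, mural and fibroblast markers fell. At 2 h 2 neuronal, 3 dopaminergic, 1 microglial and 1 endothelial, mural or fibroblast marker rose, and 1 dopaminergic, 2 oligodendrocyte lineage and 1 endothelial, mural or fibroblast marker fell. Of 10 astrocyte and radial glia markers, 0 passed at either interval by limma. At 30 min the list means of the depolarized arrays lay above those of controls for neuronal markers (10.60 to 10.71 against 10.35 to 10.58) and dopaminergic markers (7.91 to 8.07 against 7.60 to 7.72). They lay below them for oligodendrocyte lineage markers (8.10 to 8.15 against 8.22 to 8.28). These list means hide unlike genes. Of the neuronal group means, Nefm (8.66 to 9.31) and Nefl (8.61 to 8.87) moved most, while Tubb3 (11.66 to 11.64) and Snap25 (10.19 to 10.20) were nearly level. Of the dopaminergic ones, Nr4a2 moved most (7.04 to 7.91) and Pitx3 least (6.39 to 6.50). At 2 h the neuronal means overlapped (11.47 to 11.53 against 11.47 to 11.52), as did the dopaminergic means (8.31 to 8.69 against 8.41 to 8.59). The microglial means of depolarized arrays were higher at 2 h (6.99 to 7.14 against 6.88 to 6.97), and those of the 2 h controls were below those of the 30 min controls (7.01 to 7.08). These markers were dim, with 0 of 10 above the median level of all probe sets. The oligodendrocyte lineage means of depolarized arrays were lower at 2 h (7.60 to 7.64 against 7.66 to 7.76). The part of these shifts in the members' rises was not tested.

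The probe sets most like each member over the 12 arrays were named by Pearson r among genes with 1 symbol, the members themselves left out, whose SD over the arrays was at least 0.25. For Spry1 these were Dusp6, which encodes an ERK phosphatase (r = 0.988), and the splicing genes Snrpb (0.984) and Ptbp1 (0.983). For Spry2 they were Dusp6 (0.992), Rgs16, a GTPase activator for G protein alpha subunits (0.99), and Snrpb (0.986). Dusp6 rose by 1.29 at 30 min and by 1.77 at 2 h, and its 2 h controls were lower by 1.80 than those at 30 min (log2 difference -1.80, adjusted p = 1.53e-07 by limma). Its other probe sets passed in the same directions. Rgs16 rose by 0.89 and 0.91, and its controls differed by -1.19.

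For Socs3 these genes were again Dusp6, at another probe set (r = 0.983), Szrd1 (0.976) and Klhl21 (0.962). Of the members, Spry1 and Spry2 correlated with Socs3 at 0.977 and 0.975, above Szrd1 in the first case and above Klhl21 in both. For Errfi1 they were Adamts1, a secreted metalloprotease (0.971), the immediate-early factor Fos (0.964) and Tmem47 (0.961). Adamts1 rose by 1.46 at 30 min and by 1.57 at 2 h, and its controls did not pass between intervals (-0.30, adjusted p = 0.0929 by limma). Fos rose by 4.06 and 3.39, while its dimmer probe set differed by 0.10 and 0.051 (adjusted p = 0.291 and 0.61).

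For Socs2 the likeness was lower. The genes were Epdr1 (0.875), Cpt1a (0.852), which controls entry of fatty acids into mitochondria, and Crot (0.808), a peroxisomal carnitine acyltransferase. Cpt1a fell by 0.46 at 30 min (adjusted p = 0.0015 by limma) and was higher by 0.34 at 2 h (adjusted p = 0.0138), and a further Cpt1a probe set had -0.37 and 0.30, both passing. The call at 2 h was lost without control replicate 6 or depolarized replicate 4, with adjusted p up to 0.0804 over all alternatives. The correlations are descriptions over 12 arrays in 4 groups. All genes named as like a member were picked over these same arrays. Their differences and adjusted p-values therefore follow in part from that choice and are no independent support.

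**Figure D3:**
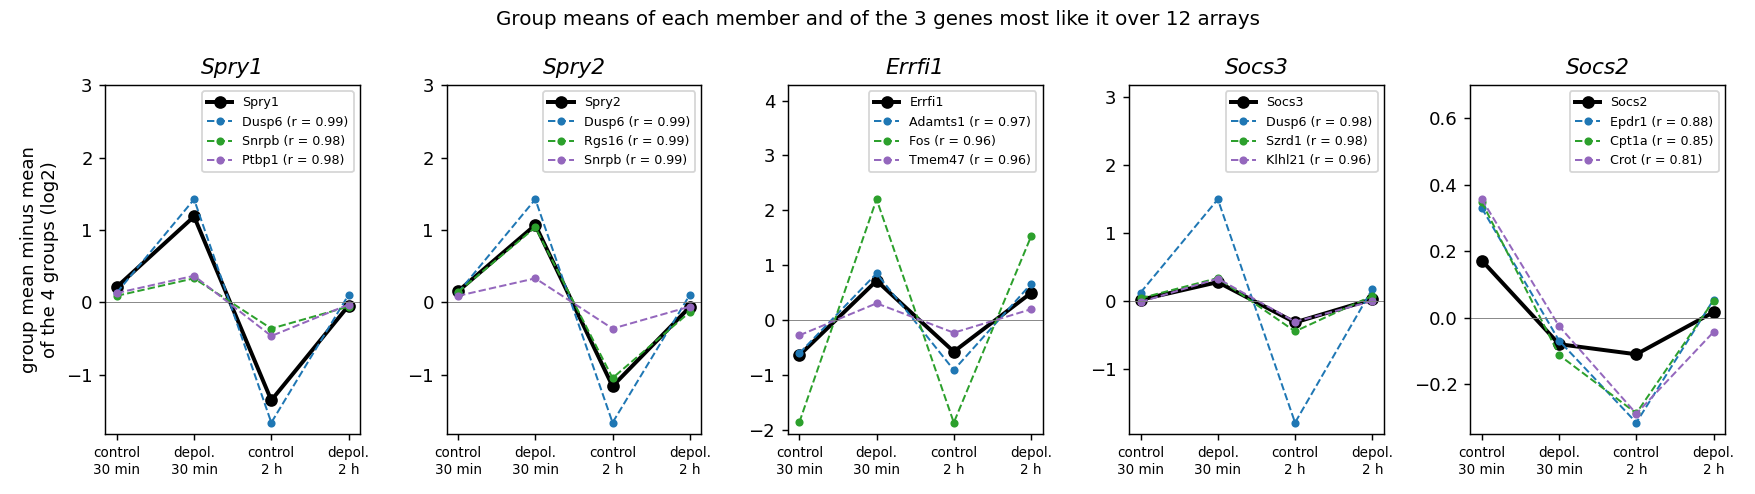
Group means of each member (black) and of the 3 genes most like it (dashed), each minus its own mean over the 4 groups (log2), with lines only to guide the eye and a separate vertical axis per panel. Dusp6 follows Spry1, Spry2 and Socs3 over a wider range, and of the genes like Errfi1, Adamts1 differs by -0.30 from the 30 min to the 2 h controls while Fos and Tmem47 are about level.

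Other inhibitors of receptor tyrosine kinase signalling rose in 6 of 13 measured genes at 30 min, with 1 fall, and in 7 of 13 at 2 h, with 0 falls (median difference 0.21 and 0.47, against 0.01 and -0.00070 over all probe sets). With single arrays left out, 4 to 6 rose at 30 min and 6 to 8 at 2 h. Over all probe sets 10.8% rose and 13.1% fell at 30 min, and 9.51% rose and 15.7% fell at 2 h. The ERK phosphatase genes Dusp5 and Dusp6 rose by 1.14 and 1.38 at 30 min and by 1.41 and 1.97 at 2 h (adjusted p at most 3.65e-05 by limma). Cblb, a ubiquitin ligase for activated receptors, rose by 0.73 at 30 min (adjusted p = 7e-06) and did not pass at 2 h (0.12, adjusted p = 0.332). Spred3, a Sprouty-related inhibitor of RAF activation, did not pass at 30 min (-0.18, adjusted p = 0.0879) and rose by 0.69 at 2 h (adjusted p = 9.66e-06).

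Upstream of these inhibitors, EGF family ligands rose in 1 of 8 measured genes at 30 min and 3 of 8 at 2 h, with 0 falls (median difference 0.05 and 0.15). At 2 h 2 to 3 rose with single arrays left out. The shares of all probe sets that rose and fell were 10.8% and 13.1% at 30 min, and 9.51% and 15.7% at 2 h. All 8 ligands lay among the dimmest 50% of probe sets. Without the dimmest 25%, 4 of them remained, of which 0 rose at 30 min and 2 at 2 h. Areg, an EGF receptor ligand, read 5.69 in the 30 min controls and 7.22 in depolarized cultures as group means, a rise of 1.53 (adjusted p = 5.43e-07 by limma), and rose by 1.16 at 2 h (adjusted p = 2.13e-05). Hbegf, another such ligand, differed by 0.33 at 30 min (adjusted p = 0.346) and rose by 1.59 at 2 h (adjusted p = 9.1e-05), and its response differed between intervals (1.26, adjusted p = 0.0134). Tgfa rose by 0.20 at 2 h (adjusted p = 0.0369) and lost that call without any 1 of 5 arrays (control replicates 4 and 5 and depolarized replicates 4, 5 and 6), after quantile normalization and after a loess correction (adjusted p up to 0.185). The brightest of 8 Nrg1 probe sets did not pass at 2 h (0.20, adjusted p = 0.187), while 2 dimmer ones did (0.30 and 0.48).

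Of FGF and other growth factor ligands 1 of 18 rose at 30 min, with 0 falls, and 2 rose and 1 fell at 2 h (median difference 0.03 and 0.02), where 10.8% and 13.1% of all probe sets rose and fell at 30 min and 9.51% and 15.7% at 2 h. With single arrays left out these counts were 1 to 2 that rose and 0 to 1 that fell at each interval. The neurotrophin gene Bdnf rose by 0.33 and 0.77 (adjusted p = 0.000945 and 7.3e-07 by limma), while its dimmer probe set did not pass. Vegfa fell by 0.28 at 2 h (adjusted p = 0.0183) at its brighter probe set, and the other did not pass (0.11, adjusted p = 0.335). Pdgfc rose by 0.34 at 2 h (adjusted p = 0.0238). The Vegfa call was lost without control replicate 6 or depolarized replicate 4 and after quantile normalization or a loess correction (adjusted p up to 0.103), and that of Pdgfc without control replicate 4 or 5 or depolarized replicate 4 (up to 0.133).

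Receptor tyrosine kinases rose in 2 of 19 measured genes and fell in 5 at 30 min, and rose in 2 and fell in 2 at 2 h (median difference -0.07 and 0.06), against 10.8% and 13.1% of all probe sets at 30 min and 9.51% and 15.7% at 2 h. With single arrays left out, 1 to 2 rose and 5 fell at 30 min, and 0 to 2 rose and 1 to 3 fell at 2 h, where median centring gave 4 that rose and 1 that fell and array weights 2 and 4. Egfr, whose protein is a target of ERRFI1, fell by 0.65 at 30 min (adjusted p = 0.000296 by limma) and differed by -0.22 at 2 h (adjusted p = 0.173). Its controls were 1.20 lower at 2 h than at 30 min (log2 difference -1.20, adjusted p = 4.81e-07), and a dim Egfr probe set passed in none of these 3 comparisons. Pdgfra, a marker of oligodendrocyte progenitors, fell by 0.58 and 0.75. Fgfr2 rose by 0.42 at 30 min at its brightest probe set (adjusted p = 0.00127), while none of its 4 others passed there. Fgfr3 fell by 0.40 at 30 min (adjusted p = 0.00488) and rose by 0.31 at 2 h (adjusted p = 0.0249), a rise that was lost without control replicate 4 or 6 or depolarized replicate 4 or 6 (adjusted p up to 0.0882).

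The RAS-ERK cascade itself had 9 of 20 listed genes measured, of which 2 rose and 0 fell at 30 min and 2 rose and 1 fell at 2 h (median difference 0.15 and -0.04). At 2 h 1 to 2 rose with single arrays left out, and at 30 min, where 2 passed, 5 rose after median centring and 4 after a loess correction. Of all probe sets 10.8% rose and 13.1% fell at 30 min, and 9.51% rose and 15.7% fell at 2 h. Sos1, an exchange factor that activates RAS, rose by 0.63 at 30 min (adjusted p = 4.84e-05 by limma) and differed by 0.0054 at 2 h (adjusted p = 0.975). The adaptor gene Grb2 rose by 0.24 at 30 min at its brightest probe set (adjusted p = 0.00916). Sos2 fell by 0.39 at 2 h (adjusted p = 0.000548) and the docking protein gene Gab1 rose by 0.34 at 2 h (adjusted p = 0.00218). The 2 h controls lay above the 30 min controls for Sos1 (0.40, adjusted p = 0.00224 by limma), Grb2 (0.24, 0.00706) and Sos2 (0.23, 0.0139). They lay below them for Gab1 (-0.25, adjusted p = 0.0121). The control calls of Sos2 and Gab1 were each lost without at least 1 single control array.

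Transcription factors of the ETS family and other ERK-responsive factors rose in 7 of 9 measured genes at 30 min, with 1 fall, and in 9 of 9 at 2 h (median difference 0.60 and 0.72). The shares of all probe sets were 10.8% that rose and 13.1% that fell at 30 min, and 9.51% and 15.7% at 2 h. Egr1 rose by 3.52 and 2.59, Ier2 by 2.26 and 1.31, Myc by 1.75 and 1.49 and the AP-1 subunit gene Fosl1 by 0.65 and 1.54 (adjusted p at most 0.00393 by limma). Several of these are also immediate-early genes and were listed with earlier results of these data known, so their counts are no independent support.

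On the cytokine side, the other SOCS genes and STAT inhibitors rose in 5 of 10 measured genes at 30 min, with 1 fall, and in 3 of 10 at 2 h, with 0 falls (median difference 0.26 and 0.08). Without depolarized replicate 5 or without control replicate 6 the count that rose at 2 h was 2. Over all probe sets 10.8% rose and 13.1% fell at 30 min, and 9.51% rose and 15.7% fell at 2 h. Socs5, which has been linked to EGF receptor turnover, rose by 0.98 at 30 min and by 0.61 at 2 h (adjusted p = 1.31e-07 and 3.39e-05 by limma), and its 2 h controls were 0.57 above the 30 min controls (adjusted p = 2.55e-05), the direction opposite to Socs3. Socs7 rose by 0.62 at 30 min (adjusted p = 3.73e-06) and differed by -0.08 at 2 h (adjusted p = 0.43), and both its probe sets passed at 30 min. Its 2 h controls were 0.62 above the 30 min controls (adjusted p = 2.68e-06 by limma). The group means of depolarized cultures were 10.43 at 30 min and 10.35 at 2 h. Cish, a STAT5 target that encodes a close relative of SOCS2, passed at neither interval (0.061 and 0.11, adjusted p = 0.72 and 0.415), and neither did Socs1 (0.089 and 0.071, adjusted p = 0.501 and 0.57).

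Pias3, an inhibitor of STAT3 DNA binding, fell by 1.03 at 30 min (adjusted p = 1.31e-07 by limma) and differed by -0.11 at 2 h (adjusted p = 0.355). Ptpn2, a phosphatase that acts on JAK and STAT proteins, rose by 0.49 and 0.35 (adjusted p = 0.000552 and 0.00768) at its brighter probe set, and the dimmer one did not pass. Of cytokine and hormone ligands 1 of 15 rose at 30 min, Cntf by 0.70 (adjusted p = 0.000192), and 0 of 15 passed at 2 h, where Cntf differed by 0.31 (adjusted p = 0.0519). Among all probe sets 10.8% rose and 13.1% fell at 30 min, and 9.51% rose and 15.7% fell at 2 h. Most of these ligands were dim. Without the dimmest 25% of probe sets 5 remained, of which 1 rose at each interval, and without the dimmest 50% 0 remained. A lack of calls in so dim a list therefore says little. Il6 differed by 0.18 and 0.14 (adjusted p = 0.0733 and 0.155) and Lif by 0.19 and 0.09 (0.185 and 0.543). The median difference of these ligands was 0.06 at 30 min and 0.07 at 2 h. With single arrays left out, 1 to 2 rose at 30 min and 0 to 1 at 2 h.

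JAK-coupled receptors rose in 1 of 17 measured genes and fell in 2 at 30 min, and rose in 4 and fell in 2 at 2 h (median difference -0.01 and 0.03), beside shares over all probe sets of 10.8% and 13.1% at 30 min and 9.51% and 15.7% at 2 h. With single arrays left out, 0 to 1 rose and 1 to 2 fell at 30 min, and 1 to 4 rose and 0 to 2 fell at 2 h. The interferon receptor gene Ifnar1 fell by 0.48 at 30 min (adjusted p = 3.17e-05 by limma), and 2 of its 3 other probe sets fell as well. At 2 h Il6r rose by 0.42 (adjusted p = 0.0021) at a dim probe set, with group means of 5.30 in controls and 5.72 in depolarized cultures. Il6st, the gene of gp130, rose by 0.30 at 2 h at its brightest probe set (adjusted p = 0.0134). That call was lost without depolarized replicate 4 or 6 (adjusted p up to 0.0679), and the other Il6st probe sets did not pass at 2 h. Il11ra1 fell by 0.33 at 2 h (adjusted p = 0.00857), which was lost without control replicate 5 (0.0533).

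Of JAK and STAT genes 1 of 8 rose and 1 fell at each interval (median difference -0.02 and 0.01). With single arrays left out, 1 to 2 rose at 30 min and 0 to 1 fell at 2 h. Of all probe sets 10.8% rose and 13.1% fell at 30 min, and 9.51% rose and 15.7% fell at 2 h. Stat3, the factor that drives Socs3 transcription in many cells, rose by 0.50 at 30 min and by 0.85 at 2 h (adjusted p = 0.00176 and 2.63e-05 by limma), at both its probe sets. Tyk2 fell by 0.43 at 30 min (adjusted p = 0.000516), and Stat2 fell by 0.26 at 2 h (adjusted p = 0.0129), which was lost without control replicate 5 (0.056). Jak2 did not pass at either interval (0.17 and -0.06, adjusted p = 0.182 and 0.662).

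**Figure D4:**
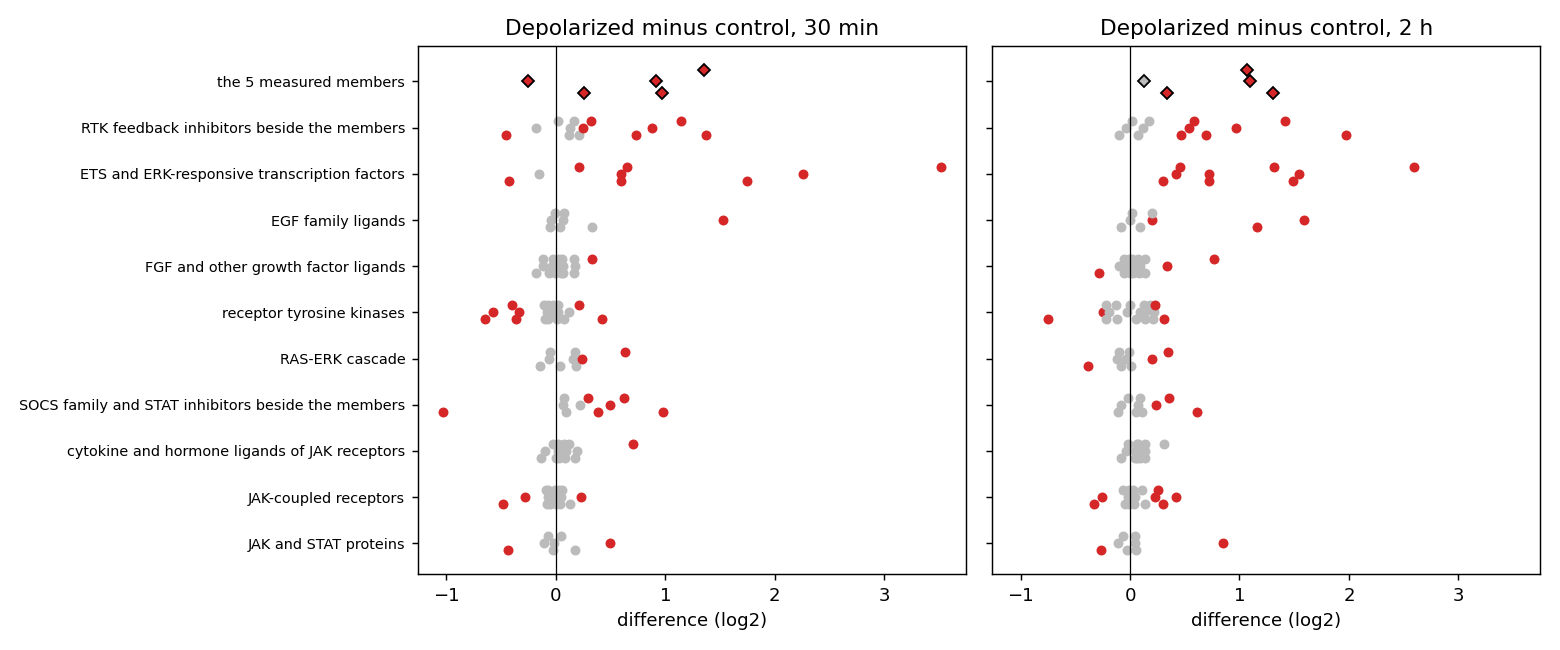
Depolarized minus control difference (log2) of every measured gene of 10 pathway lists (circles, each gene at its brightest probe set) and of the 5 measured members (diamonds) at 30 min and 2 h, red where limma's adjusted p was under 0.05 and grey otherwise. The point farthest to the right is the ERK-responsive factor Egr1, at 3.52 at 30 min and 2.59 at 2 h. At 2 h Dusp6 (1.97) and Hbegf (1.59) come next. The farthest to the left at 30 min is the STAT inhibitor gene Pias3 at -1.03.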

How the data were processed

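The authors deposited 1 table of log2 expression values per probe set, summarised by RMA (version not given) per the submitters' processing notes. Which arrays were normalized together is not given in the sources used here. Of 15923 rows, 57 array controls were left out. In the array annotation 12783 probe sets had 1 symbol, 312 had several and 2771 had none. All 12 arrays entered 1 limma fit with a mean per group (limma 3.58.1, R 4.3.3), with no replicate block and no further scaling. Tests were two-sided, with Benjamini-Hochberg adjustment over 15866 probe sets. The fit was tested on simulated data. Listed genes were taken at the probe set with the highest mean, and up to 4 per list with the smallest p in either treatment comparison were named, beside 3 genes most like each member and Cish and Socs1, which were named after their values were seen. Members and lists were chosen with earlier results of these data known. Arrays carry no read depth, so their number limits precision. Alternatives changed the scaling, filter, prior, threshold, block and arrays. Those for genes outside the rule were added after seeing the data. Promoter windows came from RefSeq (GRCr8), with 5 of 6 genes matched.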

Additional observations from a re-analysis of the deposited data

Results flagged for a closer look

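Socs2 was singled out because its response to depolarization differed between the intervals by a test of the difference itself. That test passed in 13% of all probe sets, in either direction. The response at 2 h minus that at 30 min was 0.38 (log2, SE 0.12, adjusted p = 0.0456 by limma), from a difference of -0.25 at 30 min to 0.13 at 2 h, and the 95% interval was 0.13 to 0.63. It was lost under 14 of 21 alternatives, with adjusted p from 0.0149 to 0.118 over all of them. Groups of 3 arrays are too small for a formal test of outlying arrays. Control replicate 6 read 7.12, against 7.42 and 7.40 in the other 2 h controls. Without it the response difference was 0.28 (adjusted p = 0.0893 by limma), the lowest value over the alternatives.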

How the results depend on the processing

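Of 586 recomputed member differences, 544 kept their direction and side of the threshold, 30 lost a call (29 of Socs2, 1 of Socs3), 2 gained one (Spry1 and Spry2) and 10 changed sign, none of which passed in either fit. The calls of Spry1, Spry2 and Errfi1 at 30 min and at 2 h held under all 17 alternatives run for each. The sign changes were those of Errfi1 between controls without control replicate 2 (-0.052) and control replicate 4 (-0.029; range with single arrays left out -0.052 to 0.21), of Socs3 in depolarized cultures at 2 h against 30 min controls without control replicate 1 (-0.0080), depolarized replicate 4 (-0.027) or 6 (-0.018; range -0.027 to 0.068), and of Socs2 in depolarized cultures at 30 min against 2 h controls after quantile normalization (-0.039), loess correction (-0.072) or array weights (-0.050) and without control replicate 6 (-0.068) or depolarized replicate 1 (-0.015; range -0.068 to 0.085).

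Members called for the response difference numbered 1, and 0 after quantile normalization, loess correction, a trended and robust prior, the ordinary equal-variance test, the 0.01 threshold, the replicate block and removal of the dimmest 50% of probe sets, which leaves out Socs2 and Socs3. They numbered 0 to 2 with single arrays left out. At 30 min the 5 became 3 without the dimmest 50% and 3 to 5 with single arrays left out, and between controls the 4 became 2 without the dimmest 50%. For the other changes the cause was not tested. Depolarized cultures at 2 h against 30 min controls gave 1 to 2 with single arrays left out. Over all probe sets, the 0.01 threshold called 2410 at 2 h (4001 at 0.05), 1085 for the response difference (2055) and 3712 between controls (5604), and the ordinary test called 1369 for the response difference. Without the dimmest 50%, which tests fewer probe sets, 4269 were called between depolarized groups (6507 with all probe sets tested) and 4885 (8260 likewise) for depolarized cultures at 30 min against 2 h controls.

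The labels do not say whether replicate numbers pair the arrays. With so few arrays in each group, the correlations given next cannot decide it. Deviations of same-numbered arrays correlated at -0.322 to 0.236, and 2 of 6 depolarized arrays correlated best with the control of their own number. With the replicate block, 3524 probe sets and 4 members were called at 30 min and 3617 and 4 at 2 h. Socs2 was the member that lost its call at 30 min (adjusted p = 0.0746). Comparisons between intervals share no numbers and have no block. Of 94 calls of other named genes, 20 were lost under at least 1 alternative, 17 of them without a single array, and 0 changed sign.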
